A study of Mus musculus with 227 samples.

Results

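The mouse mitochondrial chromosome contributes 37 genes to the deposited count table of 31689 genes, and these 37 transcripts are described here across all libraries of a drug screen. They were chosen by one rule, that the table places them on chrM, which gives 13 protein-coding genes, 2 ribosomal RNA (rRNA) genes and 22 transfer RNA (tRNA) genes. The screen treated primary mouse cerebrocortical cultures for 8 h with 1 of 218 drugs, 1 library for each drug, or with vehicle alone (0.2% DMSO), with 9 libraries. Cultures were prepared at embryonic day 16.5 from F1 embryos (mother FVBN, father C3B6F1) and were used at 21 days in vitro; drug and vehicle cultures shared this origin, age and duration. RNA was sequenced as polyadenylated, stranded libraries, and doses are not given in the sources used here. Because the RNA is from whole cultures, fewer cells of a type and less RNA per cell cannot be told apart.

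Mitochondria keep a small circular genome that is read from both strands into long transcripts. The tRNA genes lie between most rRNA and mRNA genes, and cutting them out of the long transcript frees the mature RNAs, many of which then receive a short poly(A) tail. The mRNAs encode core subunits of respiratory chain complexes I, III and IV and of ATP synthase, the rRNAs and tRNAs serve the mitochondrial ribosome, and all remaining subunits come from nuclear genes. In brain these complexes carry most of the ATP supply for ion pumping and synaptic transmission.

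Library totals, in megacounts (M), were 22.02 M to 65.2 M (median 35.0 M; vehicles 31.4 to 43.8 M), of which 2.90 to 4.36% fell on the 37 genes. Levels are given as CPM, the count of a gene scaled to a fixed library total. Neuron markers summed to 4563 to 6203 CPM in the vehicles and astrocyte markers to 6035 to 8192 CPM, with no marker of either list at 0. Oligodendrocyte lineage markers reached 485 to 592 CPM. Markers of microglia (3.39 to 18.4 CPM) and of mural, endothelial and fibroblast cells (41.7 to 83.5 CPM) were low, and endothelial Cldn5 was at 0 in all vehicles. Libraries came in 9 sequencing run codes of 8 to 32 libraries, and 3 of the run codes held no vehicle. Nothing in the labels says that the 9 vehicles were separate cultures, so p-values measure only the spread between these samples.

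Only 16 of the 37 genes had a mean of 1 CPM or more over all libraries: 7 of 13 mRNAs, both rRNAs and 7 of 22 tRNAs. The mRNAs of mt-Co2, mt-Co3 (complex IV), mt-Atp6, mt-Atp8 (ATP synthase), mt-Nd3 and mt-Nd4l (complex I) were listed at 0 to 2 counts in every library. These 6 lie in 1 unbroken stretch of 11 genes, from mt-Ts1 to mt-Nd4l (chrM:6870-10173, GRCm38), which together received 78 counts over all libraries, beside 292 M counts on the 37 genes. All 6 encode core subunits, and no fold change is given for them. Where a library has 0 counts, the limit that this allows is 3 counts, or 0.0460 CPM in the deepest and 0.136 CPM in the shallowest library, for counting error only.

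Most mRNAs of this stretch have a near-identical nuclear copy. The opening of mt-Co2 and that of Gm28661, an annotated nuclear pseudogene on chromosome 1, are shown because the table is silent on the first and has no row for the second (GENCODE vM21, build GRCm38; mt-Co2 chrM:7013-7072, plus strand; Gm28661 chr1:24615506-24615565, minus strand).
mt-Co2: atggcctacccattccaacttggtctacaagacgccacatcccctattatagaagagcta
Gm28661: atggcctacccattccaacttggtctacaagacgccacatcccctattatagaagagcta
The 2 sequences are the same letter for letter here and over all 681 bases that could be compared. Gm10925 matches mt-Atp6 at 678 of 678 bases, Gm28437 matches mt-Co3 at 783 of 783, Gm10222 matches mt-Nd4l at 294 of 294, and Gm28438 matches mt-Nd3 at 344 of 345. These pseudogenes lie side by side on chromosome 1 and none of them is a row of the count table. Every run of 50 bases in mt-Co2, 99.5% in mt-Atp6, 99.9% in mt-Co3, 98.0% in mt-Nd3 and 98.8% in mt-Nd4l also occurred in a nuclear transcript. For mt-Atp8 and the tRNAs of the stretch, no run of 50 bases occurred in an annotated nuclear transcript. The last 43 bases of mt-Atp8 overlap mt-Atp6, in the part that Gm10925 matches, and are too short for such a run. Sequence outside annotated transcripts was not searched. A read that fits both places equally has no unique origin; how such reads were counted is not given in the sources used here, and the part of these copies in the zeros was not tested.

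The nuclear copy ends inside mt-Nd4, a complex I subunit. The bases around that point are shown with the last 30 that Gm28439 shares in capitals and the next 30, which it lacks, in lower case (chrM:11013-11072, plus strand).
mt-Nd4: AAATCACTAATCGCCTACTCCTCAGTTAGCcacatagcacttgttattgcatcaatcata
Of all runs of 50 bases in mt-Nd4, 62.2% were shared with a nuclear transcript, and 51.1% of those in mt-Co1, the catalytic subunit of complex IV. The shares were 8.19% in mt-Nd2 and 7.61% in mt-Nd5 (both complex I), 1.04% in mt-Rnr2, and 0 in mt-Nd1, mt-Cytb, mt-Nd6 and mt-Rnr1. The level of mt-Co1 and mt-Nd4 is uncertain to the extent that their reads could be shared with these copies.

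**Figure D1:**
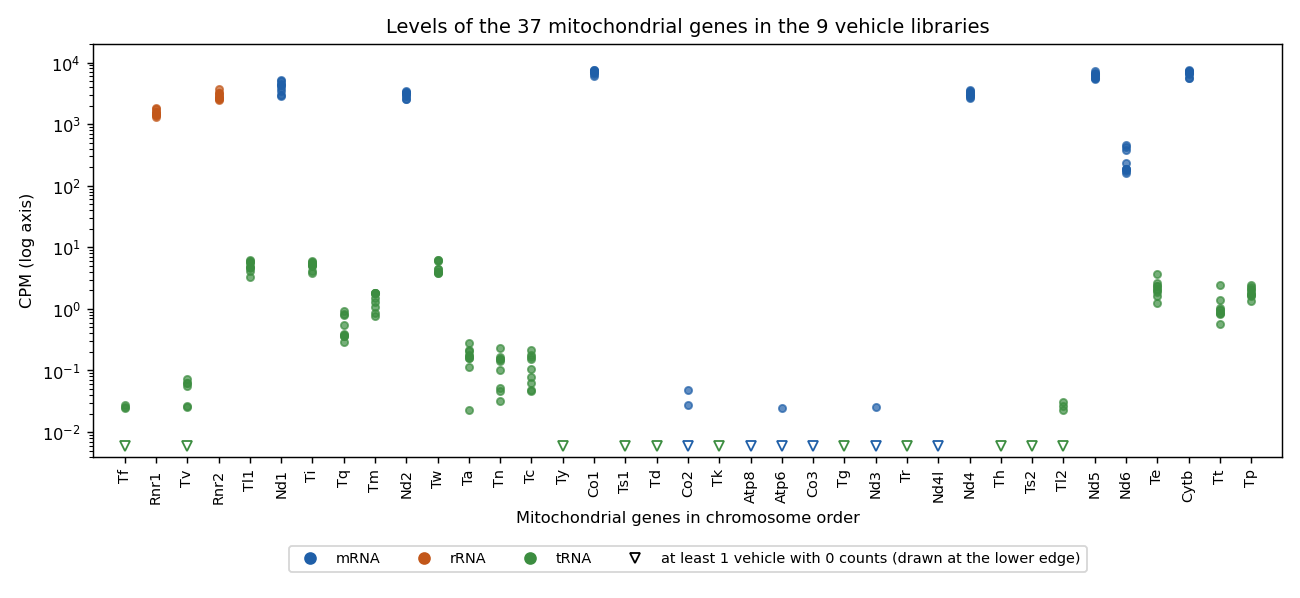
Level of each of the 37 mitochondrial genes in the 9 vehicle libraries (CPM, log axis), in chromosome order; each point is a library, blue mRNA, orange rRNA and green tRNA, and an open triangle at the lower edge marks genes with 0 counts in at least 1 vehicle. The stretch from Ts1 to Nd4l stays at or near 0 between mt-Co1 and mt-Nd4, which sit between 5949 and 7561 CPM and between 2654 and 3529 CPM.

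Per kilobase of gene length, mt-Cytb, the complex III subunit, was the highest mRNA in the vehicles, at 5879 ± 640 CPM per kb (SD, n = 9). It was followed by mt-Co1 at 4529 ± 324, mt-Nd1 at 4244 ± 846, mt-Nd5 at 3395 ± 341, mt-Nd2 at 2924 ± 325 and mt-Nd4 at 2232 ± 212 CPM per kb. The order of mt-Co1 and mt-Nd1 did not hold between libraries, with mt-Co1 higher in 5 of 9 vehicles and in 101 libraries of the screen. Each other neighbouring pair among these 6 kept its order in at least 8 of 9 vehicles. Divided instead by the number of 50-base runs without a nuclear copy, mt-Co1 came to 9573 and mt-Nd4 to 6126 CPM per kb of such starts, and mt-Cytb to 6142, so the place of mt-Co1 and mt-Nd4 in this order turns on the length used.

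Both rRNAs were below these mRNAs, as counted in polyadenylated libraries. The large-subunit rRNA mt-Rnr2 stood at 1849 ± 248 CPM per kb and the small-subunit rRNA mt-Rnr1 at 1590 ± 176 (SD, n = 9). mt-Rnr2 was higher in 8 of 9 vehicles. The only mRNA of the other strand, mt-Nd6 (complex I), was the lowest of the 7, at 512 ± 233 CPM per kb.

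mt-Nd6 and mt-Nd5 run towards each other and share 14 bases at their ends, in capitals below (mt-Nd5 chrM:13526-13565, plus strand; mt-Nd6 chrM:13552-13591, minus strand). They are shown because the levels of mt-Nd6, described below, have 2 humps.
mt-Nd5: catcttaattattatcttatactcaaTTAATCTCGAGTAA
mt-Nd6: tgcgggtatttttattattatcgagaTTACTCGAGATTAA
Whether the authors counted by strand is not given in the sources used here, and the part of the overlap in the mt-Nd6 counts was not tested.

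The tRNA genes made up 0.0393 to 0.0930% of mitochondrial counts, against 72.1 to 90.4% for mRNAs and 9.61 to 27.9% for rRNAs. In the vehicles the median was 5.2 CPM for mt-Ti (isoleucine), 4.80 for mt-Tl1 (leucine), 4.44 for mt-Tw (tryptophan), 2.1 for mt-Te (glutamate), 1.8 for mt-Tp (proline), 1.5 for mt-Tm (methionine) and 0.944 for mt-Tt (threonine). The glutamine tRNA mt-Tq had a mean of 0.636 CPM over all libraries. The other 14 had means from 0 to 0.174 CPM, and 6 of them, mt-Ty, mt-Ts1, mt-Td, mt-Tk, mt-Tg and mt-Th, were listed at 0 in every library, as was mt-Atp8 among the mRNAs. A count at a tRNA gene does not say whether the read came from a tRNA or from a longer transcript that spans it. How closely these genes abut is shown by 2 junctions whose tRNAs return below, with the tRNA in capitals between its neighbours (chrM:2646-2780 and chrM:15259-15355, plus strand).
mt-Rnr2, mt-Tl1, mt-Nd1: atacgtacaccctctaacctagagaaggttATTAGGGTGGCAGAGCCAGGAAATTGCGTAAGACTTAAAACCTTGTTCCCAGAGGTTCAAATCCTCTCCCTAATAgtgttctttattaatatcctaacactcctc
mt-Cytb, mt-Tt: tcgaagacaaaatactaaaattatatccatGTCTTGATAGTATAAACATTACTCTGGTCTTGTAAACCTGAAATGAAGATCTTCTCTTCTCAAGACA
No base separates the rRNA, the tRNA and the mRNA at the first junction, or mt-Cytb and mt-Tt at the second.

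Across libraries the mRNAs did not all move together. After centring each log2 level on the median of its run code, Spearman's rho over all libraries was 0.69 to 0.97 among mt-Nd1, mt-Nd2, mt-Nd4, mt-Nd5 and mt-Cytb, a description of likeness between values that share a library and its total. For mt-Co1 against these 5 the rho was 0.07 to 0.42. Levels differed between run codes: in an edgeR F test over the 9 run codes, 16 of 19 mitochondrial genes passed an adjusted p of 0.05, where 91.5% of all 15474 genes did, so the share of members is not above that of other genes. Run code accounted for a median R squared of 0.22 in the mitochondrial genes and 0.24 in all genes. mt-Ta, mt-Tn and mt-Nd6 did not pass.

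The levels of mt-Nd6 had 2 humps. Its vehicle values were 158, 172, 184, 185, 187 and 235 CPM in 6 libraries and 386, 433 and 451 CPM in the other 3. Over the whole screen the interval between these vehicle values was filled, and the histogram had a dip near 250 to 300 CPM, with 3 libraries from 250 to 275 CPM and 6 from 275 to 300 CPM. Divided at 250 CPM, a value set after the levels were seen, there were 101 libraries under 250 CPM (median 193) and 126 at or above it (median 358). Both sets occurred in all 9 run codes, and the adjusted R squared of the mt-Nd6 level was 0.028 with run code and 0.36 with the 57 combinations of run code and lane. Nuclear Malat1, a long non-coding RNA, was measured beside it: in the 6 vehicles with low mt-Nd6 it was 2925, 1525, 2591, 3087, 2544 and 3315 CPM, in rising order of mt-Nd6, and in the 3 with high mt-Nd6 1793, 2031 and 2043 CPM. The nuclear 18S-related Rn18s-rs5 was 118, 3.05, 58.2, 127, 132 and 108 CPM in the first and 86.8, 17.6 and 72.1 CPM in the second. Their part in the 2 levels of mt-Nd6 was not tested. Over all libraries, the level of mt-Nd6 after centring on run-code medians had a Spearman's rho of 0.65 with its neighbour mt-Nd5, 0.50 with mt-Tt and -0.53 with mt-Tp. With mt-Nd1, mt-Nd2, mt-Co1, mt-Nd4 and mt-Cytb the rho was 0.07 to 0.35. These rho describe values that share each library's total. They pool the low and high sets, so a difference between the sets cannot be told apart from likeness within them. Within the low set, mt-Nd6 and the sum of the other mRNAs had r = 0.12 (permutation p = 0.21, adjusted over 8 relations 0.24) and rho = 0.027 (p = 0.79, adjusted 0.79), and r was 0.0019 without the 2 farthest libraries. Within the high set r was 0.067 (permutation p = 0.46, adjusted 0.46) and rho 0.066 (p = 0.46, adjusted 0.53), and r was 0.12 without the 2 farthest. After centring on run-code medians r was 0.22 in the low and 0.19 in the high set, each with an adjusted permutation p of 0.040, while rho (0.058 and 0.16) did not pass (adjusted permutation p = 0.59 and 0.093).

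**Figure D2:**
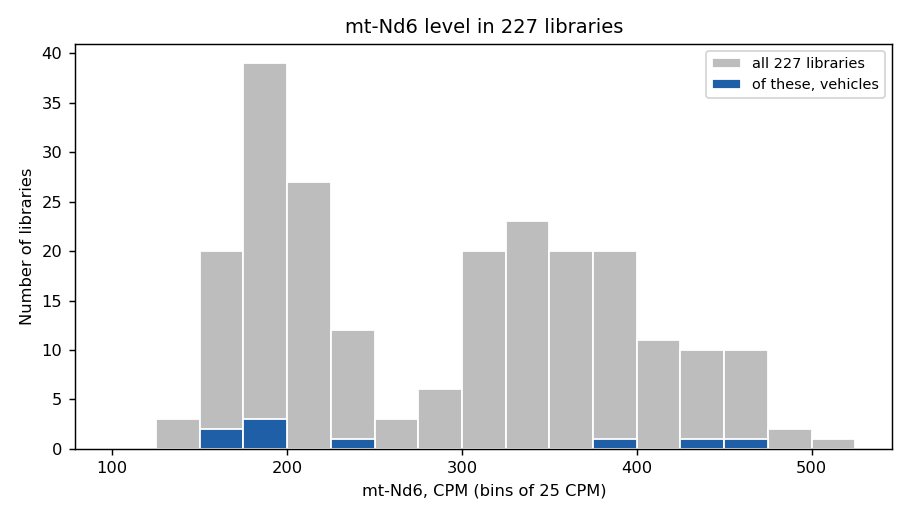
Number of libraries by mt-Nd6 level (CPM, bins of 25 CPM), all libraries in grey and the vehicles among them in blue. The 2 humps lie on either side of a dip near 250 to 300 CPM, and 6 vehicles sit in the lower and 3 in the upper one.

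Of 218 drugs, Fenofibrate alone had mitochondrial genes past the threshold when each drug was compared with the 9 vehicles in edgeR. These were 9 of its 18 genes tested, 1 higher and 8 lower. Over all drugs, 9 of 3950 tests on mitochondrial genes passed (0.228%), where 0.120% of all tests did, and the 9 are from a single library. Unadjusted p was under 0.05 in 200 of the 3950 tests (5.06%), against 3.85% of all tests. DESeq2 called 19 of 5700 mitochondrial tests over all drugs (0.333%), where 0.264% of all its tests passed. Limma with run code called 18 of 4142 (0.435%), where 0.471% of all its tests did. The limma fit held all libraries, so it set each drug against all other libraries with a run-code term, not against the vehicles alone.

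Fenofibrate is a lipid-lowering fibrate, an ester whose acid activates the nuclear receptor PPAR alpha. Its library held the highest mt-Rnr1, the lowest mt-Nd1, mt-Nd2, mt-Co1, mt-Nd4, mt-Nd5, mt-Nd6 and mt-Cytb, and the lowest mt-Tl1, mt-Tw and mt-Tt of all libraries. The ratio of summed rRNA to summed mRNA was 0.387 with Fenofibrate, against 0.124 to 0.166 in the vehicles (median 0.148). In its own run code the other 31 libraries had ratios of 0.131 to 0.190. Among all libraries the next highest ratio was 0.195.

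mt-Rnr1, the small-subunit rRNA, was at 4074 CPM with Fenofibrate and at 1281 (lowest), 1465 (median) and 1803 CPM (highest) in the vehicles. It rose by 1.39 ± 0.15 on the log2 scale (SE; edgeR adjusted p = 0.00033). The 2 vehicles of the same run code had 1574 and 1738 CPM, and no other library of that run code exceeded 2004 CPM. mt-Rnr2, the large-subunit rRNA, was at 4018 CPM, above the vehicle range of 2495 to 3731 CPM, but did not pass (log2 fold change 0.43 ± 0.17, adjusted p = 0.14). The 2 rRNAs, which lie next to each other on the chromosome with only mt-Tv between, differed in size of change: mt-Rnr1 over mt-Rnr2 was 1.01 with Fenofibrate, against 0.458 to 0.631 in the vehicles and at most 0.631 in the rest of its run code.

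Among mRNAs, mt-Nd5 was at 3903 CPM with Fenofibrate, against 5432 (lowest), 6245 (median) and 7225 CPM (highest) in the vehicles, and fell by 0.69 on the log2 scale (SE 0.16, adjusted p = 0.021). mt-Nd2 was at 1933 CPM, against 2515, 3172 and 3512 CPM, and fell by 0.68 (SE 0.16, adjusted p = 0.024). mt-Cytb was at 4306 CPM, against 5568, 6742 and 7695 CPM, and fell by 0.67 (SE 0.17, adjusted p = 0.031). mt-Nd4 was at 2193 CPM, against 2654, 2992 and 3529 CPM, and fell by 0.51 (SE 0.14, adjusted p = 0.040). These 4 lay below every vehicle without overlap. mt-Nd1, at 2512 CPM against 2901 to 5142 CPM, had a similar log2 fold change of -0.72 ± 0.28 and did not pass in edgeR (adjusted p = 0.13), but passed in DESeq2 and in limma with run code (adjusted p = 0.036 and 0.00014). mt-Co1 was nearest to the vehicles, 5946 CPM against 5949 to 7561 CPM, with a log2 fold change of -0.27 ± 0.17 (edgeR adjusted p = 0.35), and passed in limma with run code (adjusted p = 0.024). mt-Nd6 was at 134 CPM, and its log2 fold change of -1.01 ± 0.63 did not pass (adjusted p = 0.35).

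The threonine tRNA mt-Tt, shown above at its junction with mt-Cytb, had 2 counts in the Fenofibrate library, or 0.0501 CPM, where the vehicles ranged from 0.560 to 2.48 CPM. This is 4.55% of the vehicle mean, with an exact 95% Poisson interval of 0.551 to 16.4% that covers counting error only. The fitted log2 fold change was -4.39 ± 1.02 (edgeR adjusted p = 0.021). mt-Tw fell by 1.56 on the log2 scale (1.65 CPM against 3.88 to 6.3 CPM, SE 0.35, adjusted p = 0.018), mt-Tp by 1.2 (0.827 against 1.35 to 2.4 CPM, SE 0.34, adjusted p = 0.045) and mt-Tl1 by 1.02 (2.51 against 3.2 to 6.2 CPM, SE 0.29, adjusted p = 0.048). mt-Ti alone among the measured tRNAs was above the vehicles, at 6.52 CPM against 3.89 to 5.98 CPM, and did not pass (0.32 ± 0.20). mt-Tm (0.853 CPM) and mt-Te (1.30 CPM) were within the vehicle range.

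These Fenofibrate changes came with a broad change of the library. Of all 15525 genes tested, 5.82% were called higher, where 1 of 18 mitochondrial genes was, and 4.78% were called lower, where 8 of 18 were. Of the 16 mitochondrial genes with a mean of 1 CPM or more, 14 lay outside the vehicle range, against 46.6% of all 13024 such genes. Within its run code, 14 of the 16 lay beyond every one of the other 31 libraries, against 39.0% of all genes. Leaving out vehicle 9 lowered the mitochondrial calls from 9 to 5, and leaving out any 1 of the other vehicles gave 6 to 8.

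Nuclear subunits of complexes I to IV and ATP synthase were compared with the vehicles too. Of all genes with a mean of 1 CPM or more, 46.6% lay outside the vehicle range with Fenofibrate. Among 36 nuclear complex I subunits, 1 lay below that range and 7 above. The 1 below was Ndufv2, which fell by 0.34 (SE 0.07). The list's median log2 fold change was -0.01, that of all genes -0.00. None of the 4 complex II subunits lay outside. Of 9 complex III subunits 1 lay below, and of 11 complex IV subunits 1 lay below and 4 above. Of 15 ATP synthase subunits 3 lay below and 3 above. Among those below, Atp5g1, for a membrane ring subunit, fell by 0.69 (SE 0.13). Summed complex I subunits were at 2161 CPM, within the vehicle range of 1894 to 2347 CPM, and summed ATP synthase subunits at 2933 CPM, within 2721 to 3285 CPM. Whether nuclear and mitochondrial subunits differ from each other was not tested.

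Of 37 genes for mitochondrial transcription, RNA processing and genome maintenance, 3 were called higher and 1 lower, beside 10.6% of all genes called in either direction, so that the share of the list is near that of all genes. The list median was 0.03. Trmt10c, a subunit of the ribonuclease that cuts the 5′ ends of mitochondrial tRNAs, was at 21.9 CPM against 14.5 to 17.8 CPM in the vehicles and rose by 0.44 ± 0.09 (adjusted p = 0.014). Mtpap, the mitochondrial poly(A) polymerase, was at 36.2 against 25.6 to 28.8 CPM and rose by 0.38 ± 0.10 (adjusted p = 0.033). Ptcd1, a mitochondrial RNA-binding protein, rose by 0.38 ± 0.10 (adjusted p = 0.043). Fastkd5, which is needed to process mitochondrial mRNAs that no tRNA flanks, was at 6.04 against 9.46 to 12.2 CPM and fell by 0.88 (SE 0.13, adjusted p = 0.0030). The mitochondrial RNA polymerase Polrmt (-0.07 ± 0.11) and the transcription factor Tfam (0.00 ± 0.08) stayed near the vehicle values. Of 10 biogenesis regulators, Esrra fell by 0.50 (SE 0.12, adjusted p = 0.024).

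Some cell type markers also lay outside the vehicle range, as did 46.6% of all genes with a mean of 1 CPM or more. Summed neuron markers were at 4145 CPM, below the vehicle range of 4563 to 6203 CPM. Of the 8, 4 lay below their own range and 0 above, among them Syt1 and Tubb3, which fell by 0.61 and 0.74. Summed astrocyte markers were at 9378 CPM, above the 6035 to 8192 CPM of the vehicles and the highest of all libraries. Of the 8, 5 lay above their own range and 0 below, among them Aldoc and Aldh1l1, which rose by 0.64 and 0.57. Oligodendrocyte lineage markers summed to 616 CPM (vehicles 485 to 592), with 3 of 8 above and 0 below. Microglia markers summed to 4.99 CPM and mural, endothelial and fibroblast markers to 43.3 CPM, both within the vehicle range. The part of the cell mixture in the mitochondrial changes was not tested.

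**Figure D3:**
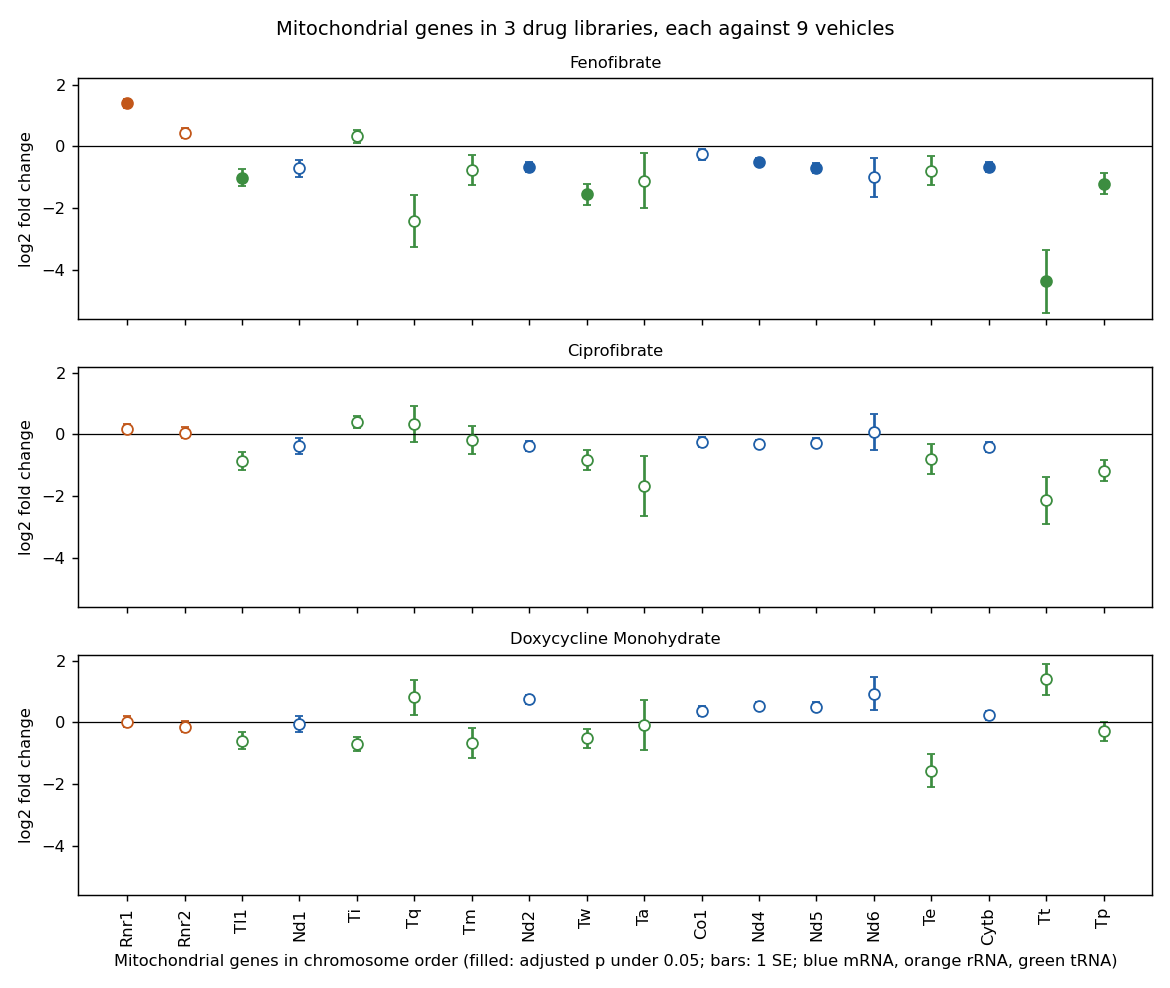
Log2 fold change of each mitochondrial gene tested (edgeR, 1 drug library against 9 vehicles) for Fenofibrate, Ciprofibrate and Doxycycline Monohydrate, in chromosome order; bars are 1 SE, filled points pass an adjusted p of 0.05, colours as for the levels by gene. Fenofibrate has mt-Rnr1 at 1.39, and filled points occur with Fenofibrate only. Most changes are smaller with Ciprofibrate, but mt-Ti, mt-Tp and mt-Te are of like size. By CPM its mt-Nd6 is at 1.09 of the vehicle mean, against 0.506 with Fenofibrate. Doxycycline Monohydrate has mt-Nd2 at 0.75.

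The screen held 4 more fibrates, which are structural relatives with a shared phenoxy acid core in most members, at doses that are not given. Summed mitochondrial mRNA was 20927 CPM with Fenofibrate, 25076 with Ciprofibrate, 27422 with Clofibrate, 28800 with Bezafibrate and 31645 with Gemfibrozil, beside 26903 (lowest), 29989 (median) and 33503 CPM (highest) in the vehicles. Fenofibrate and Ciprofibrate lay below all vehicles. The ratio of rRNA to mRNA ran the other way, at 0.387, 0.195, 0.167, 0.153 and 0.134 in the same order of drugs. Ciprofibrate, Clofibrate and Bezafibrate came from a run code with no vehicle, and in their comparison with vehicles the run code cannot be told apart from the drug. They also shared a lane with CP-448187, a drug outside this class, which was at 27337 CPM with a ratio of 0.166. Relative to the median of that run code, their ratios were at 0.27, 0.05 and -0.08 on the log2 scale. Their summed mRNA was at -0.23, -0.10 and -0.03. The part of the lane in these values was not tested.

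Within that run code Ciprofibrate had the lowest summed mRNA and the highest rRNA to mRNA ratio of 16 libraries. Its mt-Tt was at 0.253 CPM, against 0.410 to 1.31 CPM in the other 15, its mt-Tl1 at 2.8 against 4.5 to 8.2 CPM, and its mt-Tw at 2.78 against 3.46 to 6.28 CPM. mt-Nd1, mt-Nd2, mt-Nd4, mt-Cytb and mt-Te were also below all 15, which makes 8 of 16 genes beyond the run code, against 31.4% of all genes. Against the vehicles 9 of 16 were outside the range, beside 30.7% of all genes. No mitochondrial gene of Ciprofibrate passed in edgeR, where 0.723% of all genes did and 7 of 18 mitochondrial genes (38.9%) had an unadjusted p under 0.05, as did 12.7% of all genes. The largest mRNA difference was that of mt-Cytb (-0.41 ± 0.17, adjusted p = 0.34). In limma with run code as a term, mt-Tl1 and mt-Tw passed (adjusted p = 0.0026 and 0.0499), where 3.52% of all genes did, and DESeq2 called mt-Tp (adjusted p = 0.040).

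With the 5 fibrates as replicates against the 9 vehicles, edgeR called 0% of genes, 0 of 17 mitochondrial ones, and 7 of 17 mitochondrial genes had an unadjusted p under 0.05 (1793 of all 14808 genes did). The median log2 fold change of the 17 was -0.28, that of all genes -0.01. Limma with a run-code term, which set the 5 fibrates against all other libraries and not the vehicles alone, called 10 of 19. Of these, 1 was higher (mt-Rnr1, 0.25 ± 0.07), where 6.79% of all genes were. The 9 lower, where 6.53% of all genes were, included mt-Nd1 (-0.37 ± 0.09) and mt-Tw (-0.67 ± 0.12). DESeq2, against the vehicles, called 0 mitochondrial genes. The mean log2 summed mRNA was lower than in the vehicles by 0.19 (class minus vehicle -0.19), an exact permutation p of 0.053 and, adjusted over 6 classes, 0.11. Without Fenofibrate the difference was -0.11, and without Gemfibrozil -0.25 with an adjusted exact permutation p of 0.038.

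Doxycycline Monohydrate is a tetracycline antibiotic that blocks bacterial ribosomes and is known to act on mitochondrial ribosomes as well. Its library had the highest summed mitochondrial mRNA of all libraries, at 38770 CPM, and the lowest ratios of rRNA to mRNA (0.106) and of tRNA to mRNA. The differences from vehicles were uneven along the chromosome. mt-Nd2 was at 4980 CPM, against 2515 (lowest), 3172 (median) and 3512 CPM (highest) in the vehicles, and no other library of its run code exceeded 3745 CPM. Its log2 fold change was 0.75 ± 0.14 (edgeR adjusted p = 0.47). mt-Nd4 was at 4357 CPM against 2654 to 3529 CPM (0.54 ± 0.13, adjusted p = 0.70), and mt-Nd5 at 8629 CPM against 5432 to 7225 CPM (0.51 ± 0.14, adjusted p = 0.84). Each of these 3 was the highest of all libraries. mt-Co1 was also above the vehicles, at 8791 CPM against 5949 to 7561 CPM (0.36 ± 0.16).

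The first genes of the same strand stayed inside the vehicle range. mt-Rnr1 was at 1516 CPM (log2 fold change 0.03 ± 0.17), mt-Rnr2 at 2606 CPM (-0.13 ± 0.18) and mt-Nd1 at 3826 CPM (-0.05 ± 0.26). At the far end mt-Cytb, at 7690 CPM, was just under the highest vehicle (7695 CPM). Most tRNAs lay low: mt-Ti at 3.09 CPM against 3.89 to 5.98 CPM, the lowest of all libraries, mt-Tl1 at 3.239 against 3.248 to 6.2 CPM, mt-Tw at 3.27 against 3.88 to 6.3 CPM and mt-Te at 0.727 against 1.3 to 3.6 CPM. mt-Tt was opposite, at 2.82 CPM the highest of all libraries, above the 0.560 to 2.48 CPM of the vehicles. mt-Nd6 was at 497 CPM, also above the vehicles.

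No gene of Doxycycline Monohydrate passed in edgeR, where 0% of 15395 genes did, and 7 of its 18 mitochondrial genes (38.9%) had an unadjusted p under 0.05, as did 5.1% of all genes. DESeq2 called 3 (mt-Nd2, mt-Nd4 and mt-Nd5, with adjusted p from 0.00029 to 0.019), where 0.156% of all genes passed, and limma with run code 2 (mt-Nd2 and mt-Nd4), where 0.885% did. Outside the vehicle range lay 10 of 16 genes, beside 22.1% of all genes, and beyond the 22 other libraries of the run code 8 of 16, beside 20.3%. Summed neuron markers, at 5595 CPM, were within the vehicle range, astrocyte markers, at 5799 CPM, and mural, endothelial and fibroblast markers, at 41.0 CPM, below theirs; their part in these values was not tested. Of 37 genes for mitochondrial transcription, processing and maintenance none passed, with a median log2 fold change of 0.00.

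Doxycycline Monohydrate was grouped with 3 other antibacterials that act on the bacterial ribosome, gyrase or RNA polymerase. Moxifloxacin·HCl, a fluoroquinolone, was at 36017 CPM, and the rifamycins Rifampin and Rifabutin, which block bacterial RNA polymerase, at 35791 and 34961 CPM. All 4 of this group exceeded the highest vehicle (33503 CPM), as did 76 of the 218 drugs (34.9%). Their mean was 0.26 above that of the vehicles on the log2 scale (exact permutation p = 0.0042, adjusted over 6 classes 0.025). After centring on run-code medians the difference was 0.23 with an adjusted exact permutation p of 0.050, just above the threshold, and without Doxycycline Monohydrate 0.23 with 0.055. The screen also held Sulfamethoxazole (29527 CPM, inside the vehicle range), Nitrofurantoin (34533 CPM) and Pyrazinamide (35106 CPM), antibacterials of other kinds. With these 3 added, a choice made after seeing the data, 6 of 7 exceeded every vehicle and the difference was 0.20 (adjusted exact permutation p = 0.033), or 0.20 after centring on run-code medians (0.054). Single genes did not pass: edgeR called 0% of genes for this class, with 5 of 17 mitochondrial genes (29.4%) and 3.79% of all genes at an unadjusted p under 0.05, DESeq2 called 0 and limma with run code 0 of the mitochondrial genes.

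The thyroid hormones Levothyroxine·Na and Liothyronine·Na, which are known to act on mitochondrial biogenesis in other tissues, were at 34049 and 35358 CPM, both above all vehicles. Both came from a run code with a median of 33032 CPM. The difference of 0.20 had an exact permutation p of 0.036 (adjusted 0.11), where 2 against 9 libraries can give no p below 0.018. edgeR called 1.30% of all genes and none of 17 mitochondrial genes, with 6 of the 17 (35.3%) and 21.2% of all genes at an unadjusted p under 0.05. The lowest p was that of mt-Tp (-1.10 ± 0.27, adjusted p = 0.075). Their mt-Nd6, 418 and 434 CPM, belonged to the high set of libraries. So did that of Mirtazapine (413 CPM) and Modafinil (396 CPM), the other libraries of their lane.

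Thiazolidinediones (Rosiglitazone 34070 and Pioglitazone·HCl 34048 CPM), agonists of PPAR gamma, were 0.17 above the vehicles (exact permutation p = 0.073, adjusted 0.11). Both came from a run code of 32 libraries whose median was 33700 CPM, itself above the highest vehicle. Both lay close to that median, and the 1 vehicle of the run code was at 32884 CPM. The difference from all vehicles therefore also carries the level of the run code. Nucleoside analogue antivirals, a family in which some members inhibit the mitochondrial DNA polymerase, ranged from 26767 CPM (Famciclovir) through 28745 (Valganciclovir·HCl) and 31679 (Acyclovir) to 34717 CPM (Lamivudine), with a difference of 0.00 (exact permutation p = 0.96). Benzodiazepines ranged from 27701 CPM (Lorazepam) to 36561 CPM (Oxazepam), with Temazepam, Clonazepam and Triazolam at 29107, 29446 and 30992 CPM, and a difference of 0.02 (exact permutation p = 0.83). edgeR called 0%, 0% and 3.86% of all genes in these 3 classes and no mitochondrial gene, none of which had an unadjusted p under 0.05; DESeq2 and limma with run code called none either. In the ratios of rRNA, tRNA or mt-Nd6 to mRNA no class passed, with adjusted exact permutation p of 0.23 or more over 6 classes for each ratio. With so few libraries in a class, this does not show that the ratios were alike. The ratio with the lowest p was rRNA to mRNA in the fibrates (0.39 on the log2 scale, exact permutation p = 0.038, adjusted 0.23).

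**Figure D4:**
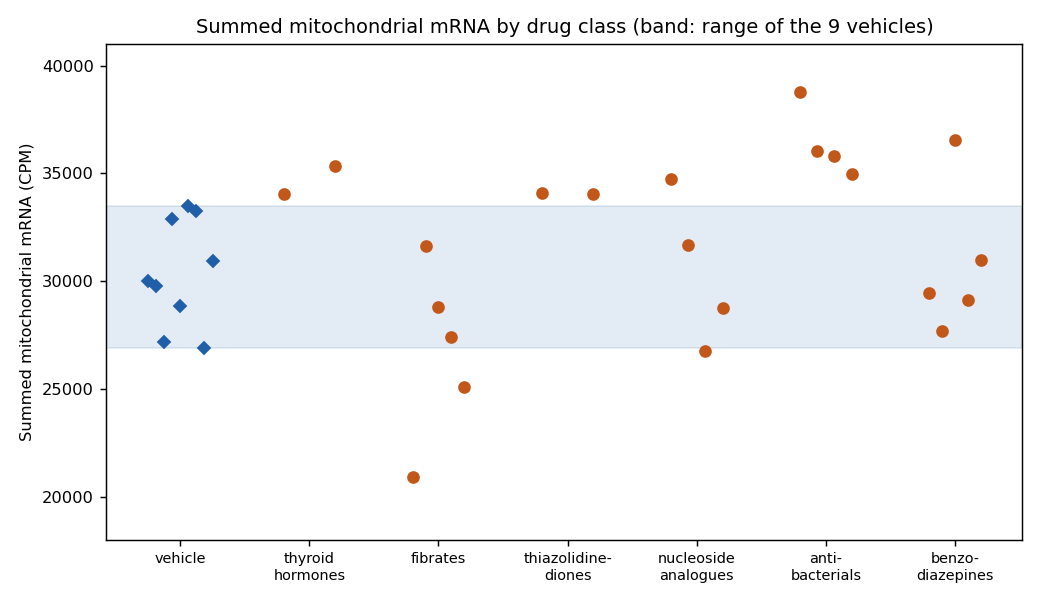
Summed mitochondrial mRNA (CPM; the axis does not start at 0) in the 9 vehicles and in each drug of 6 classes; each point is a library and the band is the vehicle range, 26903 to 33503 CPM. The 4 antibacterials of the group lie above the band, and Fenofibrate and Ciprofibrate below it.

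Relative to its run-code median, Fenofibrate had the lowest summed mRNA of all drugs (-0.62 on the log2 scale), followed by Famciclovir (-0.24), the beta blocker Bisoprolol Fumarate (-0.24), the tricyclic antidepressant Imipramine·HCl (-0.24) and Ciprofibrate (-0.23). One vehicle reached -0.26, so the drugs after Fenofibrate were no lower than a vehicle. The highest were Acarbose (0.31), Doxycycline Monohydrate (0.29), WAY-202041 (0.27), Cortisone Acetate (0.25) and Pyrazinamide (0.24), where the highest vehicle was at 0.08. None of these has a replicate, and apart from Fenofibrate none had a mitochondrial gene past the edgeR threshold.

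In the rRNA to mRNA ratio, again relative to run-code medians, Fenofibrate (1.32) was followed by the kinase inhibitor Nilotinib (0.36) and CE-326597 (0.30), and the lowest were Doxycycline Monohydrate (-0.51), Methocarbamol (-0.26) and Hydroxyurea (-0.25). Vehicles spanned -0.18 to 0.22. With Nilotinib mt-Rnr2, at 4265 CPM, was the highest of all libraries and mt-Rnr1 had a log2 fold change of 0.20 ± 0.16. In the tRNA to mRNA ratio the plant flavonoids Luteolin (0.41) and Kaempferol (0.40) were highest, followed by Levocarnitine (0.34), and Doxycycline Monohydrate (-0.74), Chlorpropamide (-0.43) and Acarbose (-0.37) were lowest, with vehicles at -0.22 to 0.15. In the ratio of mt-Nd6 to the other mRNAs the extremes (Liothyronine·Na 1.03, Levothyroxine·Na 1.03, Hydroxyzine Dihydrochloride 0.96; Finasteride -1.08, Oseltamivir Phosphate -1.02, Duloxetine·HCl -1.01) are given beside vehicles at -0.93 to 0.76, and the 2 sets of mt-Nd6 levels lie within this measure.

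**Figure D5:**
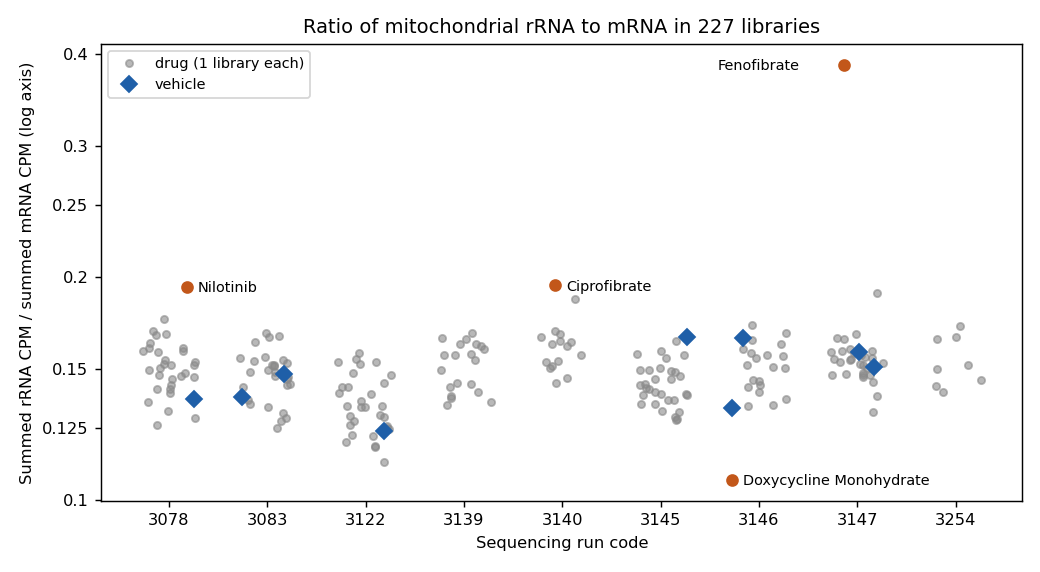
Ratio of summed mitochondrial rRNA to summed mRNA (log axis) in all libraries by sequencing run code; diamonds are vehicles, grey points drugs, and 4 drugs are named. Fenofibrate stands at 0.387 in a run code whose other libraries reach 0.190, and Doxycycline Monohydrate is lowest at 0.106.

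Besides Fenofibrate and Doxycycline Monohydrate, 9 drugs were listed for known links to mitochondria, energy use or stress hormones, and 6 of the 9 lay inside the vehicle range of summed mRNA. Deferasirox, an iron chelator, was at 27147 CPM, Levocarnitine, the fatty acid carrier, at 27991, the uricosuric Benzbromarone at 29242, Nilotinib at 31598, the topoisomerase inhibitor Mitoxantrone·HCl at 31985 and the mTOR inhibitor Everolimus at 33466 CPM. Metformin·HCl, a biguanide known to inhibit complex I, was at 34752 CPM, the glucocorticoid Dexamethasone at 35360 and the potassium channel opener Diazoxide at 37539 CPM, the 3 above all vehicles. These last 3 shared a run code whose median was 33700 CPM, itself above the highest vehicle, and relative to it they were at 0.04, 0.07 and 0.16. No mitochondrial gene of these drugs passed in edgeR.

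Across all libraries (n = 218 drugs and 9 vehicles) the summed mitochondrial mRNA correlated with nuclear genes for respiratory chain complexes and ATP synthase. The 2 sums do not cover the same complexes, as the measured mitochondrial mRNAs encode subunits of complexes I, III and IV only. Summed nuclear subunits of complexes I to IV and ATP synthase had r = 0.61 and rho = 0.65 with it (permutation p = 1e-05 each, the smallest that 100000 resamples give; adjusted over the 8 relations 1.6e-05), and r = 0.62 without the 2 libraries farthest from the median. Within run codes the rho ranged from 0.38 to 0.87 and was above 0 in 9 of 9, and after centring on run-code medians it was 0.61. Summed mitochondrial rRNA had r = 0.39 and rho = 0.54 (permutation p = 1e-05, adjusted 1.6e-05), and r = 0.54 once Fenofibrate and Nilotinib were left out, with rho from -0.17 to 0.79 within run codes. Total counts had r = 0.10 and rho = 0.11 (permutation p = 0.13 and 0.099, adjusted 0.17 and 0.13).

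Cell type markers also correlated with the mRNA level. Astrocyte markers had r = 0.48 and rho = 0.56, neuron markers r = -0.45 and rho = -0.49, and activity-regulated genes r = -0.39 and rho = -0.39 (permutation p = 1e-05, adjusted 1.6e-05 for each). Without the 2 farthest libraries r was 0.57, -0.43 and -0.38. Astrocyte markers had a rho above 0 in 7 of 9 run codes (range -0.26 to 0.73), neuron markers in 2 of 9 (-0.75 to 0.43) and activity-regulated genes in 2 of 9 (-0.61 to 0.29). All these values share each library's total, and the part of the cell mixture in the mRNA level was not tested.

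The nuclear genes whose level was most like the summed mitochondrial mRNA, by Spearman's rho of log2 CPM centred on run-code medians over all libraries and 9773 genes with a mean of 10 CPM or more, were Atp5o (0.71), Hmgn3 (0.71), Immt (0.68), Nono (0.67) and Fam192a (0.66). Atp5o encodes a stalk subunit of ATP synthase and Immt a protein that holds the folds of the inner mitochondrial membrane in place, while Hmgn3 and Nono encode nuclear proteins. The most opposite genes were Usp31 (-0.59), Zfp382 (-0.59), Strbp (-0.59), Armcx4 (-0.58) and Cacna1e (-0.58), which were chosen after their values were seen.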

How the data were processed

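The authors deposited a table of counts, whole reads per gene and library, without normalization. Per the submitters' processing notes, the tools were Subread 1.4.6, STAR 2.4.0, edgeR 3.10.5 and limma, with mm10; which tool served which step, and how reads with several matches were treated, is not given in the sources used here. Each gene's length is a deposited value of the same table. Deposited RPKM values were not used. The members, gene lists, drug classes and tests were chosen with earlier results of these data known.

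All 37 identifiers were found in GENCODE vM21, whose transcripts gave coordinates, sequences and the 50-base runs. CPM used the column total. In R 4.3.3, edgeR 4.0.16 (TMM factors, default filter on low counts, quasi-likelihood F tests, Benjamini-Hochberg over all genes, threshold 0.05) compared each drug and 6 classes with the 9 vehicles, and the run codes with each other. A single drug library has no error of its own. For class sums the test was an exact permutation test, two-sided; relations across libraries used 100000 permutations. Alternatives used RLE factors, no filter, DESeq2 1.42.0, limma 3.58.1 with run code, totals without chrM genes, centring, and leaving libraries out. The limma fit held all libraries and a run-code term. In it a drug or class was set against all other libraries, drugs and vehicles together.

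Named were all mRNAs and rRNAs, tRNAs with a mean CPM of 1 or more, drugs with a member past the threshold, the 5 highest and 5 lowest in summed mRNA and 3 each way in the 3 ratios after centring on run-code medians, and the drugs of the classes and a list of drugs with mitochondrial links. The 5 nuclear genes most like the sum were also named. The list genes given for Fenofibrate (nuclear subunits, regulators and markers) lie outside this rule and were chosen after their values were seen. The ratio of mt-Rnr1 to mt-Rnr2, that of mt-Co1 to the other mRNAs and the comparisons within a run code were added after seeing the data. All 173 list genes were found by symbol. The scripts were tested on simulated data. No 2 vehicles agreed within sampling noise (lowest chi-square per gene 10.5 over 36 pairs and 12674 genes).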

Additional observations from a re-analysis of the deposited data

Results flagged for a closer look

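In groups of 4 to 10 libraries, 115 sets of values were checked for 1 library apart from the others, and 12 such values were found, where chance gives about 1 in 20. Fenofibrate stood apart from the other 4 fibrates in summed rRNA (8092 CPM, next 4886), in mt-Rnr1 (4074 CPM, next 1767), in the ratio of rRNA to mRNA (0.387, next 0.195), in that of mt-Rnr1 to mt-Rnr2 (1.01, next 0.590) and in that of mt-Co1 to the other mRNAs (0.397, next 0.327). Doxycycline Monohydrate stood apart from the other 3 antibacterials in mt-Nd2 (4980 CPM, next 3765) and in the ratio of tRNA to mRNA (0.000435, next 0.000680). Among the vehicles, vehicle 1 had a mt-Tt of 2.48 CPM (next 1.39). Acyclovir had the highest mt-Rnr1 of the nucleoside analogue antivirals, 1891 CPM (next 1503). Among benzodiazepines, Oxazepam was apart in mt-Rnr1 (1896 CPM, next 1586) and mt-Co1 (7282 CPM, next 6402), and Temazepam in mt-Tl1 (7.61 CPM, next 5.6).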

How the results depend on the processing

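Over all 218 drugs, 9 mitochondrial calls in edgeR became 19 with DESeq2 and 18 in limma with run code, and 9, 9 and 6 with RLE factors, totals without chrM genes and no filter. Calls for Fenofibrate ranged from 5 to 8 when a vehicle was left out (an alternative chosen after seeing the data), lowest without vehicle 9. Without the filter mt-Nd4, mt-Tl1 and mt-Tp no longer passed (adjusted p from 0.063 to 0.065), nor did mt-Tp in limma with run code (0.22); the cause was not tested. In limma with run code mt-Nd1, mt-Co1, mt-Tm and mt-Tq of Fenofibrate also passed (adjusted p = 0.00014, 0.024, 0.0035 and 0.0030), and with DESeq2 mt-Nd1 and mt-Tq (0.036 and 0.048). Doxycycline Monohydrate had 0 calls in edgeR, 3 with DESeq2 and 2 in limma; the fibrates 0 and, in limma, 10; the thyroid hormones 0 and, with DESeq2, 1. With TMM-scaled CPM the class differences in summed mRNA were 0.15 for thyroid hormones, -0.21 for fibrates and 0.16 for thiazolidinediones, each with an adjusted exact permutation p of 0.027; centring on run-code medians gave 0.23 for the antibacterials (0.050), and 0.20 (0.054) with 3 further antibacterials added after seeing the data. Leaving out 1 library, differences ranged from 0.23 to 0.28 in antibacterials, -0.25 to -0.11 in fibrates, 0.17 to 0.22 in thyroid hormones and 0.15 to 0.19 in thiazolidinediones. They changed sign in nucleoside analogue antivirals (-0.062 to 0.063) and benzodiazepines (-0.047 to 0.053), reaching -0.0055, -0.016 and -0.018 without vehicle 4, 7 or 8 and -0.062 and -0.018 without Lamivudine or Acyclovir in the first, and -0.0026, -0.0043 and -0.047 without vehicle 7, vehicle 8 or Oxazepam in the second. By rho, correlations across libraries kept their direction and side of the threshold under the 3 scalings and centrings tried; by r, centring gave mt-Nd6 0.22 and 0.19 with the other mRNAs in its low and high sets (adjusted permutation p = 0.040 each). The run-code count was 16 with RLE factors or no filter and 17 in limma. No paired analysis was possible because each drug has 1 library. A drug library rests on 1 sample, and tRNA genes with few counts limit what can be seen.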

Other observations

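The ratio of mt-Co1 to the sum of the other mRNAs, a value within each library, was 0.260 to 0.391 in the vehicles. It was below every vehicle in 70 of 218 drugs and above every vehicle in 2. Its median by run code ran from 0.253 to 0.359, and the run code with the highest median held 8 libraries and no vehicle. Relative to run-code medians it was highest with Sulfamethoxazole (0.45 on the log2 scale), Apigenin (0.43) and Fenofibrate (0.41), and a vehicle reached 0.44.

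Finasteride, an inhibitor of steroid 5-alpha reductase, had the lowest mt-Te of all libraries, 0.320 CPM, against 1.3 to 3.6 CPM in the vehicles. It did not pass in edgeR, and was called in DESeq2 (log2 fold change -2.88 ± 0.59) and limma with run code (-2.20 ± 0.37). The gene next to it on the same strand, mt-Nd6, was at 139 CPM, the lowest of its run code. Of 16 mitochondrial genes 2 lay below the vehicle range with Finasteride and 0 above, where 17.2% of all genes lay outside. With Nilotinib mt-Tt did not pass in edgeR, and was called lower in DESeq2 (-2.38 ± 0.75) and limma with run code (-2.04 ± 0.53). DESeq2 also called its mt-Rnr2 higher (0.45 ± 0.17). Of 16 mitochondrial genes 4 lay above the vehicle range with Nilotinib and 1 below, where 54.1% of all genes lay outside. For Nitrofurantoin, with 39.2% of all genes outside, DESeq2 called mt-Ti higher (0.88 ± 0.21). These drugs and genes were chosen after their values were seen.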
